A study of Ericerus pela with 8 samples.

Results

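Transcripts of 4 esterases of the Chinese white wax scale, Ericerus pela, were described across the sexes and developmental stages of the insect. They are an alpha-esterase 41 (Unigene103830_FOB), a carboxylesterase (Unigene132114_FOB), a feruloyl esterase-like protein (Unigene143868_FOB) and an esterase E4 (Unigene154182_FOB). A unigene is a transcript sequence assembled from the reads, and these 4 were among 147509 unigenes read in at least 1 library. They were named by identifier with their levels in these libraries known. Their levels are therefore given as a description, with no test. The 8 RNA-seq libraries, 1 per group, came from male first-instar larvae, male second-instar larvae, male adults, female first-instar larvae, female second-instar larvae and 3 stages of female adults (early, middle and later). No mutation, agent or host treatment is named for any group. The number of insects behind a library is not given, and neither is whether the sexes were collected from the same place. With 1 library per group no difference has a replicate check, and the intervals given are exact 95% intervals that cover counting error only.

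Carboxylesterases and their relatives hydrolyse ester bonds through a catalytic serine, and in insects they take part in the breakdown of dietary esters, of hormones and of insecticides. Alpha-esterases form an insect family in which some members degrade or bind organophosphates. Esterase E4 was described in the peach-potato aphid, where extra copies of its gene give resistance to insecticides, and FE4 is its close relative in that aphid. Feruloyl esterases release ferulic acid from plant cell walls. In the white wax scale the second-instar male covers itself in wax, the adult male is winged, and the adult female stays fixed on the host plant, swells and lays eggs.

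The names rest on the best protein match that the authors deposited with each unigene. The alpha-esterase 41 match was to the silkworm Bombyx mori (E value 1.76e-19), over a unigene of 242 bases. The carboxylesterase match was to the cotton aphid Aphis gossypii (E value 2.63e-20), over 346 bases. The feruloyl esterase-like match was to protein Est2 of the termite Reticulitermes flavipes (E value 1.46e-10), over 458 bases. The esterase E4 match was to the carpenter ant Camponotus floridanus (E value 3.48e-36), over 800 bases. The deposited gene ontology terms were carboxylesterase activity for alpha-esterase 41 and the carboxylesterase, and hydrolase activity for the other 2. All 4 unigenes are fragments of transcripts, so different unigenes may be pieces of 1 gene, and near-identical family members may share reads. No enzyme activity was measured.

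The largest library total of uniquely assigned reads was 1.58 times the smallest, and 1 read amounted to 0.434 CPM in the largest library and 0.685 CPM in the smallest. CPM scales a library's total to 1e+06 reads. A unigene with no read was absent from a library's table and was taken as 0, which allows up to 3 reads, or 1.30 to 2.05 CPM. The labels' sexes were checked with the unigene matched to the male isoform of doublesex (Unigene155621_FOB), which had 16, 42 and 22 reads in the male libraries and 0 to 4 reads in the female libraries. The later-stage female adult library stood apart in the vitellogenin list, 16 unigenes that are mostly vitellogenin receptor fragments. It had 1752 CPM against 72.2 to 335 CPM in the other libraries, of which male second-instar larvae had the 335 CPM. The list was thus no check of sex.

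Nearly all reads of the 4 esterases lay in 3 libraries, those of male second-instar larvae, female middle-stage adults and female later-stage adults. These 3 libraries held 98.4% of the reads of alpha-esterase 41, all of those of the carboxylesterase, 99.7% of those of the feruloyl esterase-like protein and 98.8% of those of esterase E4. The 4 together had 701 reads (321 CPM) in male second-instar larvae, 621 reads (425 CPM) in female middle-stage adults and 124 reads (66.5 CPM) in female later-stage adults. They had 4 reads in male first-instar larvae, 6 in male adults, 2 in female second-instar larvae and none in female first-instar larvae or female early-stage adults.

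Alpha-esterase 41 had 4, 260 and 2 reads in male first-instar larvae, male second-instar larvae and male adults. In the female libraries it had 0 reads in first-instar larvae, second-instar larvae and early-stage adults, 92 reads in middle-stage adults and 18 reads in later-stage adults. Its level was 119 CPM (105 to 135) in male second-instar larvae, 63.0 CPM (50.8 to 77.2) in female middle-stage adults and 9.65 CPM (5.72 to 15.3) in female later-stage adults. These intervals did not overlap, so the 3 libraries kept that order beyond counting error. It was the 283rd most read of the 106752 unigenes seen in male second-instar larvae. Reads covered 90.91% of its length in male second-instar larvae and in female middle-stage adults, and 75.21% in female later-stage adults.

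The carboxylesterase was read in 3 libraries only, with 184 reads in male second-instar larvae, 83 in female middle-stage adults and 13 in female later-stage adults. It had 0 reads in male first-instar larvae, male adults, female first-instar larvae, female second-instar larvae and female early-stage adults. Its level was 84.3 CPM (72.6 to 97.4) in male second-instar larvae, 56.8 CPM (45.3 to 70.4) in female middle-stage adults and 6.97 CPM (3.71 to 11.9) in female later-stage adults. The order of libraries was that of alpha-esterase 41, again with intervals that did not overlap. Coverage of its length was 98.27% in male second-instar larvae, 99.13% in female middle-stage adults and 77.17% in female later-stage adults.

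The feruloyl esterase-like unigene had 212 reads in male second-instar larvae, 116 in female middle-stage adults and 42 in female later-stage adults. It had 1 read in female second-instar larvae and 0 in male first-instar larvae, male adults, female first-instar larvae and female early-stage adults. Its level was 97.2 CPM (84.5 to 111) in male second-instar larvae, 79.4 CPM (65.6 to 95.3) in female middle-stage adults and 22.5 CPM (16.2 to 30.4) in female later-stage adults. The intervals of male second-instar larvae and female middle-stage adults overlapped, and both lay above that of female later-stage adults. Coverage of its length was 91.92%, 93.01% and 92.14% in those 3 libraries.

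Esterase E4 had another order. It had 330 reads in female middle-stage adults, 51 in female later-stage adults and 45 in male second-instar larvae. It had 4 reads in male adults, 1 in female second-instar larvae and 0 in male first-instar larvae, female first-instar larvae and female early-stage adults. Its level was 226 CPM (202 to 252) in female middle-stage adults, 27.4 CPM (20.4 to 36.0) in female later-stage adults and 20.6 CPM (15.0 to 27.6) in male second-instar larvae. The intervals of the last 2 libraries overlapped. It was the 95th most read of the 91781 unigenes seen in female middle-stage adults, and the 896th by reads per length. Among the 106752 unigenes seen in male second-instar larvae it ranked 14135th by reads. Reads covered 99.62% of its length in female middle-stage adults, 95.37% in female later-stage adults and 85.62% in male second-instar larvae.

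**Figure D1:**
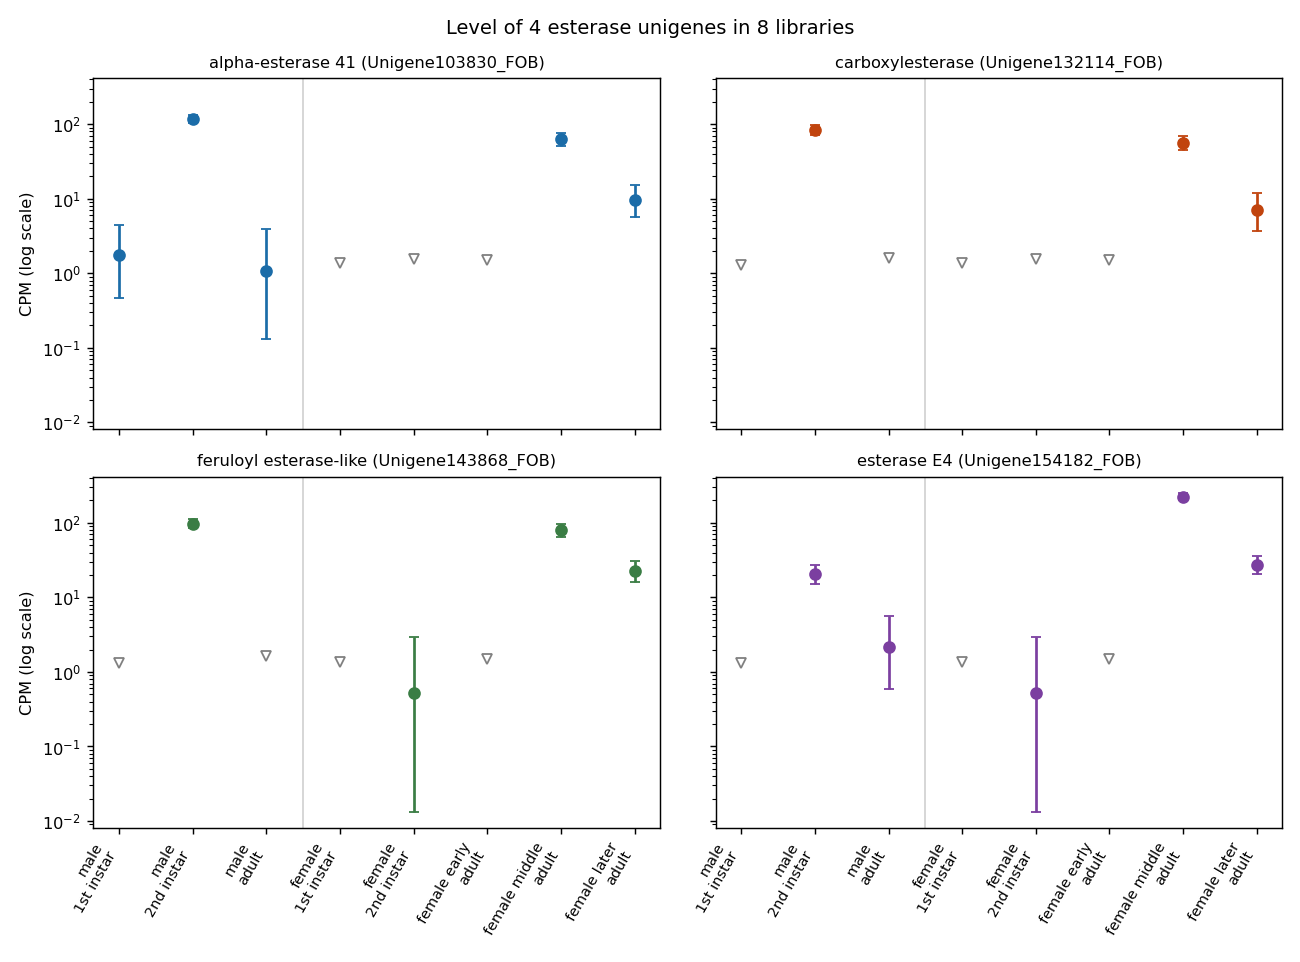
Level of each of the 4 esterases in CPM (log axis) in the 8 libraries, male libraries left of the grey line and female libraries right of it. Points are single libraries with exact 95% counting intervals, and open triangles stand at the level of 3 reads in libraries with 0 reads. Alpha-esterase 41, the carboxylesterase and the feruloyl esterase-like unigene peak in male second-instar larvae at 119, 84.3 and 97.2 CPM, and esterase E4 peaks in female middle-stage adults at 226 CPM.

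The first comparison was between the sexes at the second instar, the stage at which males secrete wax. Differences were counted by a 4-fold rule, applied to levels after adding 1 CPM to each and asking for a minimum of 20 reads in the library with more. All 4 esterases were past this rule and higher in males, where 2.64% of the 34182 unigenes with enough reads were past it and higher in males and 3.67% were past it and lower in males. They were picked with these values known, so nothing is read from their count. Alpha-esterase 41 was at least 76.2-fold higher in male second-instar larvae (260 reads) than in female second-instar larvae (0 reads, taken as 3). The carboxylesterase was at least 53.9-fold higher (184 against 0 reads). The feruloyl esterase-like unigene was 186-fold higher (33.1 to 7393; 212 reads against 1 read). Esterase E4 was 39.5-fold higher (6.74 to 1596; 45 reads against 1 read), and this interval is wide because the female library held 1 read. In whole insects fewer cells that make a transcript and less transcript per cell cannot be told apart. Lists of unigenes of other organs also differed between these libraries: a gut list (sucrase, trypsin and aminopeptidase N, 64 unigenes, 55 of them read in males and 57 in females) summed to 914 CPM in male and 1466 CPM in female second-instar larvae, and a fat body list (21 unigenes, 11 read in males and 6 in females, all of them also in the vitellogenin list) to 335 CPM in male and 180 CPM in female second-instar larvae. Their part in the result was not tested.

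At the first instar neither sex reached 20 reads for any of the 4 esterases. Alpha-esterase 41 had 4 reads in male and 0 in female first-instar larvae, with counting intervals that overlapped, and the other 3 had 0 reads in both. Over all unigenes 0.766% were past the rule and higher in males, and 2.79% were past it and lower in males. A sex difference in these transcripts at the first instar was therefore not detectable at this depth.

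In males, the 4 esterases were higher at the second instar than before and after it. From the first to the second instar, alpha-esterase 41 was 68.6-fold higher at the second instar (26.5 to 254; 260 against 4 reads). The carboxylesterase was at least 64.7-fold higher, the feruloyl esterase-like unigene at least 74.6-fold higher and esterase E4 at least 15.8-fold higher, each against 0 reads in first-instar males. In that step 3.95% of all unigenes with enough reads were past the rule and higher at the second instar, and 4.26% were lower.

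In male adults all 4 were lower than in male second-instar larvae. Alpha-esterase 41 was 109.7-fold lower (30.1 to 910; 2 against 260 reads). The carboxylesterase was at least 51.7-fold lower and the feruloyl esterase-like unigene at least 59.6-fold lower, each at 0 reads in adults. Esterase E4 was 9.49-fold lower (3.46 to 36.3; 4 against 45 reads), the smallest of the 4 differences. In this step 10.1% of unigenes were past the rule and higher in adults, and 17.4% were lower. The median log2 ratio of all unigenes, male adults over male second-instar larvae, was -0.63 with library totals, -0.27 with TMM factors and -0.07 with DESeq2 size factors. The share of higher unigenes among those past the rule was 36.7% with totals, 49.1% with TMM factors and 56.4% with DESeq2 size factors. All 4 esterases stayed past the rule under each scaling, and with DESeq2 size factors the ratios to second-instar males became at most 0.0294 for the carboxylesterase and 0.0255 for the feruloyl esterase-like unigene. In the same library the muscle list (myosin heavy chain, tropomyosin and troponin, 24 unigenes) was at 842 CPM in male adults, with 20 of 24 read, against 389 CPM in male second-instar larvae, with 19 read. Its part in the result was not tested.

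In females, the 4 transcripts were near 0 until the middle of adult life. No esterase of the 4 had more than 1 read in female first-instar larvae, female second-instar larvae or female early-stage adults, so none entered those 2 steps. Across the first step 1.16% of unigenes were past the rule and higher in female second-instar than in first-instar larvae and 1.43% were lower. Across the second step 1.23% were higher in female early-stage adults than in second-instar larvae and 0.119% were lower.

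All 4 were then higher in female middle-stage adults than in female early-stage adults, where all 4 had 0 reads. Alpha-esterase 41 was at least 41.7-fold higher, the carboxylesterase at least 37.6-fold, the feruloyl esterase-like unigene at least 52.6-fold and esterase E4 at least 149.6-fold. Of all unigenes 2.77% were past the rule and higher in middle-stage adults, and 7.6% were lower. The gut list summed to 1433 CPM in middle-stage adults and 1380 CPM in early-stage adults, with 57 and 55 of its 64 unigenes read, and the vitellogenin list to 238 CPM in middle-stage and 162 CPM in early-stage adults, with 16 and 7 of 16 read. Their part in the result was not tested.

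All 4 were lower in female later-stage than in middle-stage adults. Alpha-esterase 41 was 6.52-fold lower in later-stage adults (3.91 to 11.5; 18 against 92 reads). The carboxylesterase was 8.15-fold lower (4.51 to 15.9; 13 against 83 reads). Esterase E4 was 8.26-fold lower (6.14 to 11.3; 51 against 330 reads). The feruloyl esterase-like unigene was 3.53-fold lower (2.46 to 5.15; 42 against 116 reads) and was the only one of the 4 not past the 4-fold rule. Its interval overlapped those of alpha-esterase 41 and the carboxylesterase but not that of esterase E4. Past the rule were 3.89% of unigenes higher and 4.47% lower in later-stage adults. The intervals of the 4 later-stage levels lay above the 1.51 CPM that 0 reads allow in early-stage adults. In the same step the vitellogenin list was at 1752 CPM in later-stage adults, with 16 of its 16 unigenes read, against 238 CPM in middle-stage adults, also with 16 read. The gut list was at 926 CPM with 44 of 64 read in later-stage adults, against 1433 CPM with 57 read in middle-stage adults. Their part in the result was not tested.

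Male adults were compared with each female adult stage. Against female early-stage adults no esterase of the 4 had 20 reads in either library, while 9.31% of unigenes were past the rule and higher in males and 16.8% lower. Against female middle-stage adults all 4 were lower in males. Alpha-esterase 41 was 58.0-fold lower (15.6 to 486; 2 against 92 reads), the carboxylesterase at least 34.9-fold and the feruloyl esterase-like unigene at least 48.7-fold. Esterase E4 was 104-fold lower (40.2 to 384; 4 against 330 reads). Of all unigenes 16.4% were past the rule and higher in males, and 18.9% were lower.

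Against female later-stage adults the feruloyl esterase-like unigene was at least 13.8-fold lower in males (0 against 42 reads) and esterase E4 was 12.6-fold lower (4.63 to 48.0; 4 against 51 reads). Both were past the rule, beside 16.9% of unigenes higher and 20.7% lower in males. Alpha-esterase 41 had 2 and 18 reads and the carboxylesterase 0 and 13 reads in male adults and female later-stage adults, under the minimum of 20. The median log2 ratio of all unigenes moved with the scaling here too. It was -0.52, -0.37 and -0.62 against early-, middle- and later-stage females with totals, -0.19, -0.02 and -0.44 with TMM factors, and -0.04, 0.05 and -0.24 with DESeq2 size factors. The share of higher unigenes among those past the rule was 35.6%, 46.4% and 45.0% with totals, 46.5%, 56.6% and 50.1% with TMM factors, and 51.0%, 58.6% and 56.1% with DESeq2 size factors, again for the early, middle and later stage in turn. The calls for the 4 esterases were the same under all 3 scalings.

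The sex with the higher level of the 4 transcripts thus differed by stage, males at the second instar and females in middle adult life. Male second-instar larvae and female middle-stage adults, the 2 libraries with the most reads, were set side by side after their levels were seen. Alpha-esterase 41 was 1.89 times as high in male second-instar larvae as in female middle-stage adults (1.49 to 2.43), and the carboxylesterase 1.48 times (1.14 to 1.95). The feruloyl esterase-like ratio was 1.22 (0.971 to 1.55), an interval that includes equal levels. Esterase E4 ran the other way, 11.0-fold lower in male second-instar larvae (8.01 to 15.3). Set against female later-stage adults, male second-instar larvae had 12.3 times the alpha-esterase 41 level (7.66 to 21.2), 12.1 times the carboxylesterase level (6.90 to 23.1) and 4.31 times the feruloyl esterase-like level (3.09 to 6.16). The esterase E4 ratio was 0.754 (0.494 to 1.15), an interval that includes equal levels.

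Levels were compared between the 4 esterases only per length, as the deposited RPKM (CPM per kilobase of unigene). In male second-instar larvae alpha-esterase 41 had 492 RPKM, the carboxylesterase 244, the feruloyl esterase-like unigene 212 and esterase E4 25.8 RPKM. In female middle-stage adults the values were 260, 164, 173 and 282 RPKM in the same order of unigenes. In female later-stage adults they were 39.9, 20.2, 49.2 and 34.2 RPKM. Alpha-esterase 41 was thus the highest of the 4 in male second-instar larvae, and the lead was not kept in the female adults.

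The ratio of alpha-esterase 41 to the carboxylesterase per length was 2.02 in male second-instar larvae (1.67 to 2.45), 1.58 in female middle-stage adults (1.17 to 2.16) and 1.98 in female later-stage adults (0.917 to 4.39). These intervals overlap, so a change in the proportion of the 2 unigenes was not detectable at this depth. The ratio of alpha-esterase 41 to esterase E4 was 19.1 (13.9 to 26.8), 0.922 (0.723 to 1.16) and 1.17 (0.641 to 2.03) in the same libraries. The larval interval overlapped neither adult interval. The carboxylesterase and the feruloyl esterase-like unigene stood at 1.15 (0.938 to 1.41) in male second-instar larvae, 0.947 (0.706 to 1.27) in female middle-stage adults and 0.410 (0.202 to 0.778) in female later-stage adults. Their proportion in the later-stage library lay below that of the male larvae beyond counting error. The ratio of the feruloyl esterase-like unigene to esterase E4 was 8.23 (5.94 to 11.6) in male second-instar larvae, 0.614 (0.493 to 0.761) in female middle-stage adults and 1.44 (0.933 to 2.21) in female later-stage adults. None of these intervals overlapped another. A unigene covers only part of its transcript, and a level per length compares those parts.

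**Figure D2:**
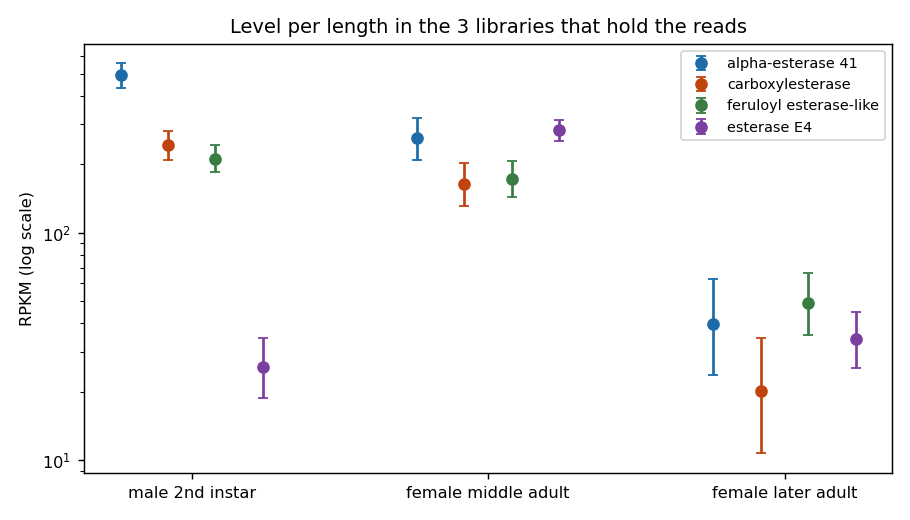
RPKM (log axis) of the 4 esterases in male second-instar larvae, female middle-stage adults and female later-stage adults, 1 library each, with exact 95% counting intervals. Esterase E4 is lowest in male second-instar larvae at 25.8 RPKM, where alpha-esterase 41 is at 492 RPKM, and reaches 282 RPKM in female middle-stage adults.

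Likeness of pattern was measured by Pearson's r of log2(CPM + 1) over the 8 libraries, as a description of points that share a library total in each library. Among the 4, r was 0.985 between the carboxylesterase and the feruloyl esterase-like unigene, 0.981 between alpha-esterase 41 and the carboxylesterase, and 0.961 between alpha-esterase 41 and the feruloyl esterase-like unigene. Esterase E4 had r of 0.877, 0.895 and 0.923 with alpha-esterase 41, the carboxylesterase and the feruloyl esterase-like unigene. Among 12930 other unigenes with a named match and enough reads, 32, 44, 40 and 8 reached r of 0.95 with alpha-esterase 41, the carboxylesterase, the feruloyl esterase-like unigene and esterase E4. Of these, 17, 22, 18 and 1 carried an esterase name, as did 180 of all candidates. The counts include 2, 2, 2 and 0 of the other members, which were picked with their levels known. Several of the rest may be pieces of 1 gene, so nothing is read from these counts. At r of 0.99 the counts of all candidates were 0, 8, 5 and 0, of which 0, 4, 1 and 0 carried an esterase name.

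The unigenes most like alpha-esterase 41 were a beta-galactosidase, an enzyme that removes galactose from sugar chains (Unigene74565_FOB, r = 0.988), a peroxidasin-like protein, a heme peroxidase of the extracellular matrix (Unigene110296_FOB, r = 0.986), and a juvenile hormone esterase-like protein (Unigene146933_FOB, r = 0.985). Those most like the carboxylesterase were another carboxylesterase unigene (Unigene131841_FOB, r = 0.9997), the carboxyl/choline esterase CCE025a (Unigene122488_FOB, r = 0.999) and a peroxidase (Unigene107611_FOB, r = 0.998). All 3 had reads in the same 3 libraries and 0 reads in the other 5. Unigene131841_FOB had 60 reads in male second-instar larvae, 29 in female middle-stage adults and 8 in female later-stage adults, and whether it is a piece of the same gene could not be settled from the files.

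Those most like the feruloyl esterase-like unigene were an endothelial lipase, by name an enzyme that cleaves phospholipids (Unigene128886_FOB, r = 0.996), a juvenile hormone esterase-like protein (Unigene112359_FOB, r = 0.995) and a sugar transporter (Unigene155611_FOB, r = 0.994). The lipase had 139, 55 and 25 reads in male second-instar larvae, female middle-stage adults and female later-stage adults, and 0 reads elsewhere. Those most like esterase E4 were a carboxylesterase (Unigene112066_FOB, r = 0.981), EH domain-binding protein 1 (Unigene151091_FOB, r = 0.980) and the oo18 RNA-binding protein, a regulator of translation in the Drosophila ovary (Unigene152315_FOB, r = 0.976). The carboxylesterase had 15, 60 and 7 reads in the 3 libraries. EH domain-binding protein 1 had 127 to 290 reads in every library, so it follows the order of libraries and not the size of the differences.

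The other esterases were described from a list of 217 unigenes whose match description holds an esterase name, the 4 included. The list held 73 carboxylesterase-type unigenes (3 of the 4 among them), 48 juvenile hormone esterases, 59 phosphodiesterases, 13 cholinesterases, 10 thioesterases, 8 of the neuroligin family, 5 others and the feruloyl esterase-like unigene, the only one with that name. Between male and female second-instar larvae 151 of the 217 had enough reads. Of these, 37 were past the rule and higher in males and 3 lower, or 33 and 3 without the 4 members, beside the 2.64% and 3.67% of all unigenes given above. The median log2 ratio of the list was 0.21, against 0.05 for all unigenes with enough reads. Of the 50 carboxylesterase-type unigenes other than the members with enough reads, 17 were higher in males and 2 lower, with a median log2 ratio of 0.98.

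Apart from the members, the unigenes named below follow a rule that ranks a ratio against 0 reads at its bound of 3 reads, so that some unigenes with 0 reads in the lower library are not named although their ratio may be larger. Among the 37 that were higher in males, ranked by the log2 ratio with 1 CPM added, alpha-esterase 41, the carboxylesterase and the feruloyl esterase-like unigene had places 1, 2 and 3 and esterase E4 place 24. The members were picked with their levels known, so nothing is read from their places, here or in the comparisons below. Clade E member 7 (Unigene129524_FOB) had 229 reads in male and 2 in female second-instar larvae, 101-fold (27.5 to 836). The FE4 unigene Unigene150723_FOB had 152 and 2 reads in male and female second-instar larvae, 66.8-fold (18.2 to 556). The lower ones were another FE4 unigene (Unigene80832_FOB, 21 reads in male and 102 in female second-instar larvae, 5.53-fold lower, 3.43 to 9.31) and a putative esterase (Unigene49541_FOB, 4 and 21 reads, 5.97-fold lower, 2.02 to 23.9). Unigenes matched to FE4 therefore did not all follow 1 pattern. The most read carboxylesterase-type unigene on average (Unigene62825_FOB) had 110 reads in male and 123 in female second-instar larvae and was read in all 8 libraries.

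The cholinesterases were grouped by that word in the name only, and carboxyl/choline esterase CCE025a, spelled apart, was counted with the carboxylesterase type. Of this group, carboxyl/cholinesterase 7 (Unigene83445_FOB) had 136 reads in male and 0 in female second-instar larvae, at least 39.8-fold. An acetylcholinesterase (Unigene114797_FOB) had 38 and 0 reads, at least 11.1-fold. Of the juvenile hormone esterases, which inactivate juvenile hormone, 13 of 36 with enough reads were higher in males, among them Unigene139627_FOB (183 reads in male and 2 in female second-instar larvae), Unigene141269_FOB (135 and 3), Unigene141681_FOB (106 and 0) and Unigene154045_FOB (179 and 6). Of the phosphodiesterases, ectonucleotide pyrophosphatase/phosphodiesterase 5 (Unigene140621_FOB) had 31 and 4 reads, and a dual cyclic nucleotide phosphodiesterase (Unigene151533_FOB) 5 and 26 reads, in male and female second-instar larvae.

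**Figure D3:**
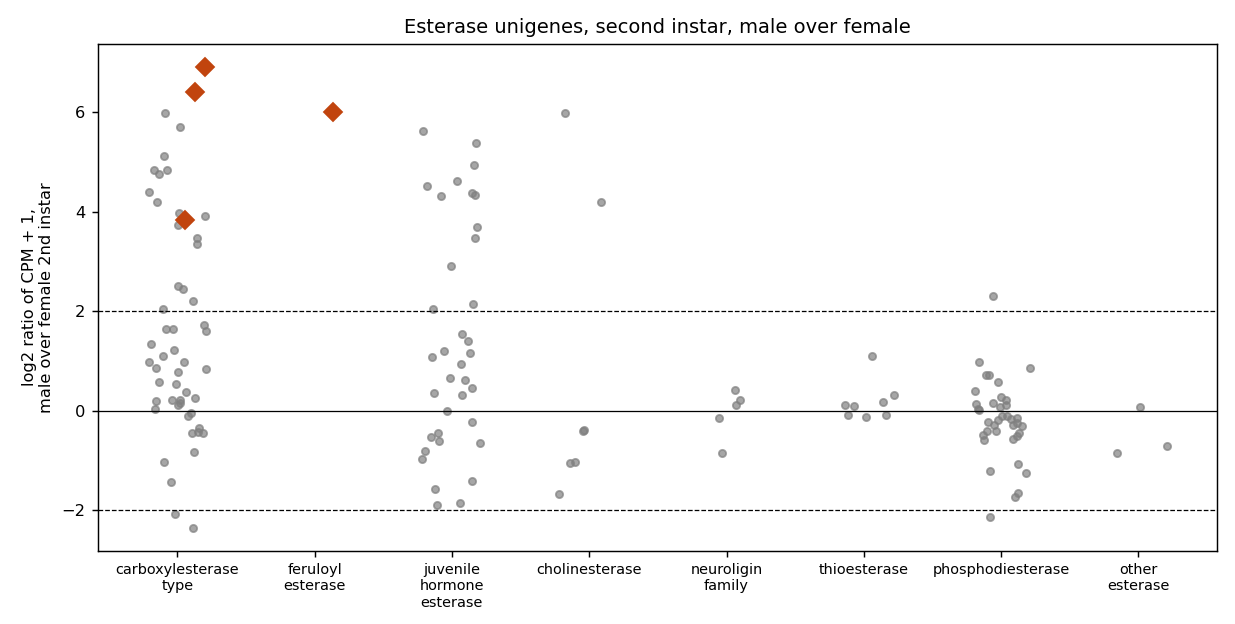
Log2 ratio of CPM + 1, male over female second-instar larvae, of the esterase unigenes that reached 20 reads in either library, by kind. Grey points are single unigenes, red diamonds the 4 described here and dashed lines the 4-fold rule; 37 unigenes lie above the upper line and 3 below the lower one.

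The 33 other esterases that were higher in male second-instar larvae were set beside the 865 unigenes without an esterase name that passed the same rule, since being high in those larvae chose both sets. The sets differ in that every listed esterase has a protein match. Of all 902 unigenes past the rule, esterases included, 256 had one. Of the 33, 27 (81.8%) were highest in male second-instar larvae, and of the 865, 650 (75.1%). At most 3 reads in each of male first-instar larvae, female first-instar larvae, female second-instar larvae and female early-stage adults were found for 24 of the 33 (72.7%) and 243 of the 865 (28.1%). In male adults 30 of the 33 (90.9%) and 648 of the 865 (74.9%) were at least 4-fold lower than in male second-instar larvae. In female middle-stage adults 32 of the 33 (97.0%) and 529 of the 865 (61.2%) were above their level in early-stage adults, by any amount and with no minimum of reads. Of those with enough reads in either library, 13 of 16 (81.25%) and 154 of 341 (45.2%) were at least 4-fold higher. In later-stage adults 31 of the 33 (93.9%) and 484 of the 865 (56.0%) were below the middle-stage level, again by any amount and with no minimum of reads. These shares describe the libraries, were not tested, and several of the 33 may be pieces of 1 gene.

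**Figure D4:**
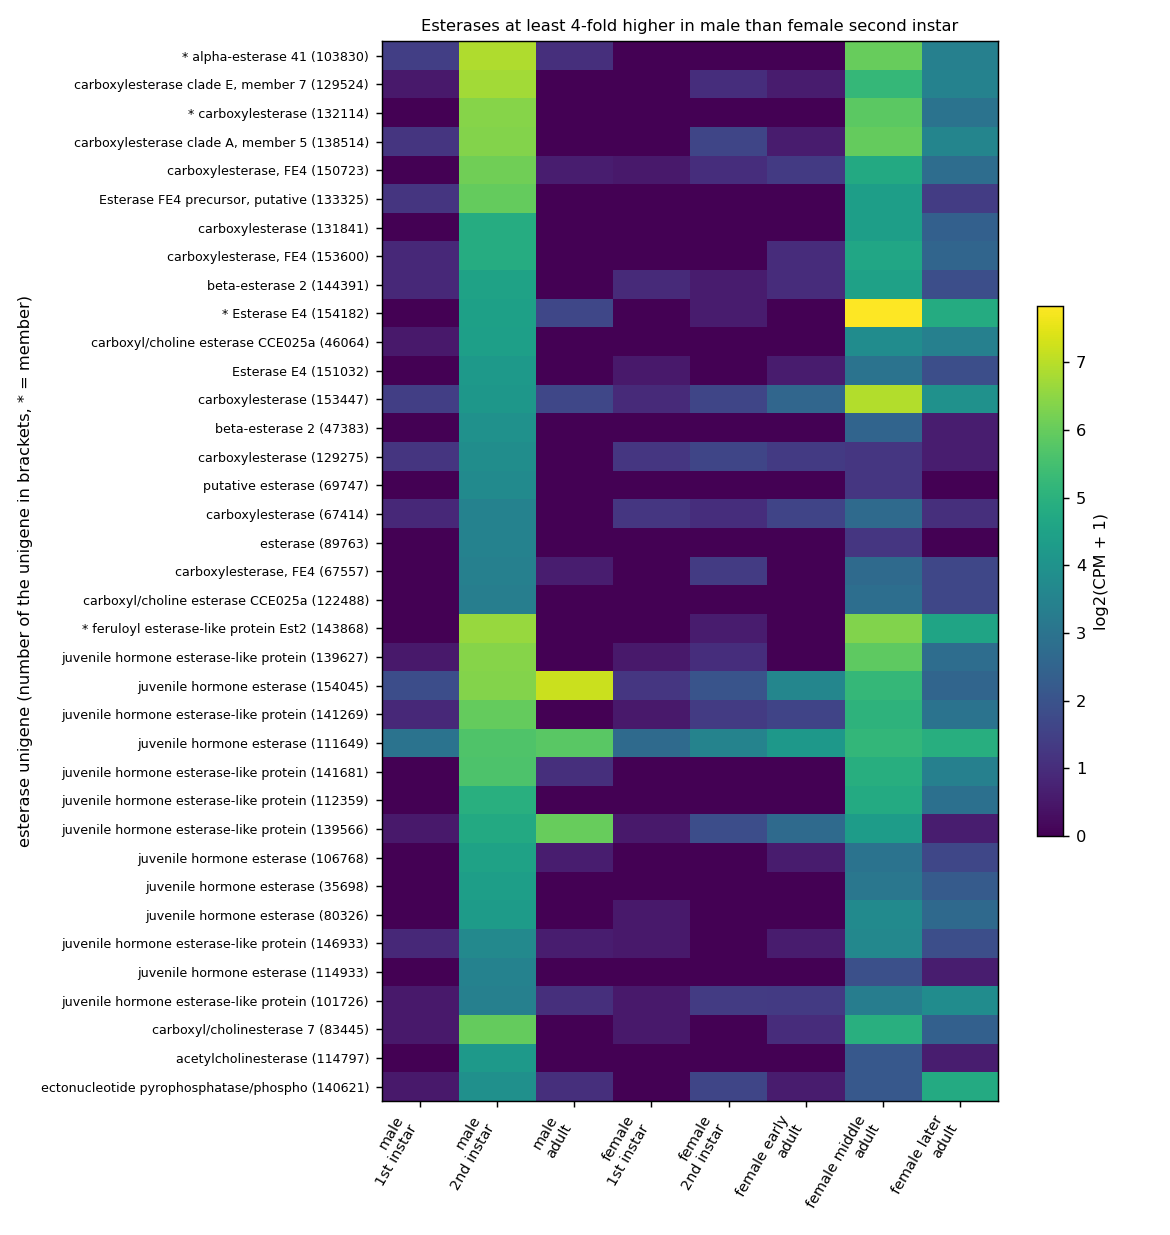
Level as log2(CPM + 1) (colour) of the 37 esterases at least 4-fold higher in male than in female second-instar larvae (rows, grouped by kind) in the 8 libraries (columns, males left). Stars mark the 4 members. Rows were chosen for a high level in male second-instar larvae. In female middle-stage adults 17 rows were at least 4-fold higher than in early-stage adults, of 20 with enough reads in either library. Of all 37, 27 had at most 3 reads in each of the 4 libraries of both first instars, female second-instar larvae and female early-stage adults.

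Male over female at the second instar and middle over early female adults share no library. Of all unigenes, 902 were higher in the first comparison and 857 in the second, and the 171 in both were 18.96% of the first and 19.95% of the second. Of unigenes with a protein match, 256 and 293 were higher, and the 65 in both were 25.4% and 22.2%. Of the esterases other than the 4 members, 33 and 18 were higher, and the 13 in both were 39.4% of the first and 72.2% of the second.

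**Figure D5:**
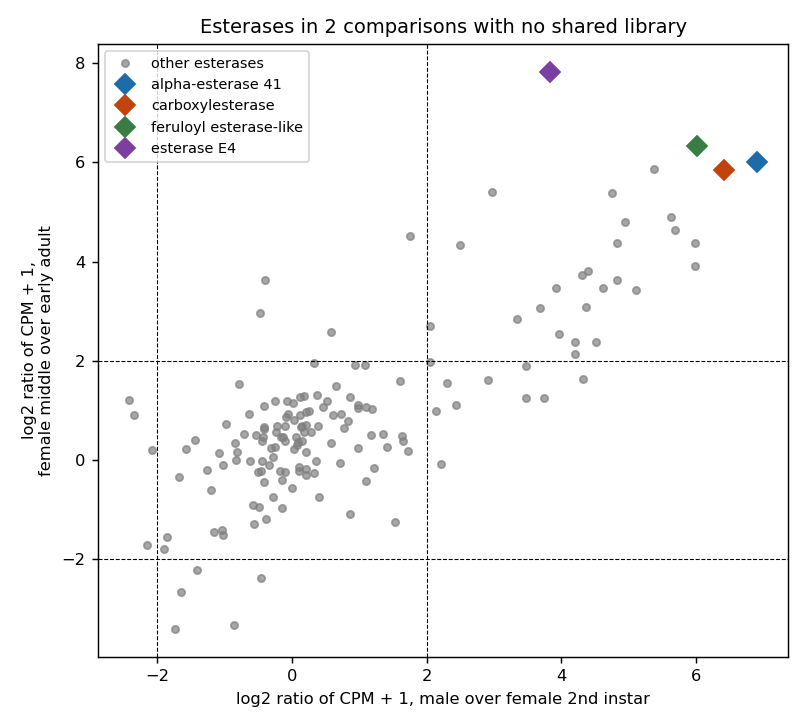
Log2 ratio of CPM + 1 of esterase unigenes in female middle-stage over early-stage adults (vertical) against male over female second-instar larvae (horizontal), for unigenes with enough reads in either comparison. Coloured diamonds are the 4 members, grey points the others and dashed lines the 4-fold rule; the 4 members lie in the upper right with 13 other esterases that pass both.

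In the other comparisons the esterase list, members included, was counted by the same rule. From the first to the second instar in males 46 of 158 with enough reads were higher and 6 lower (29.1% and 3.80%, beside 3.95% and 4.26% of all unigenes). By the log2 ratio with 1 CPM added, the feruloyl esterase-like unigene, the carboxylesterase, alpha-esterase 41 and esterase E4 had places 1, 2, 8 and 16 of the 46. By the naming rule, clade E member 7 (Unigene129524_FOB, 229 reads at the second and 1 at the first instar), the juvenile hormone esterase-like Unigene139627_FOB (183 and 1) and carboxyl/cholinesterase 7 (Unigene83445_FOB, 136 and 1) were named on the higher side. Acetylcholinesterase 1 (Unigene153736_FOB, 6 and 44), a dual cyclic nucleotide phosphodiesterase (Unigene140459_FOB, 7 and 47) and an ace1 type acetylcholinesterase (Unigene142078_FOB, 16 and 86) were named on the lower side.

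In male adults, 12 of 153 were higher than in male second-instar larvae and 69 lower (7.84% and 45.1%, beside 10.1% and 17.4% of all unigenes), and 35 of the 51 carboxylesterase-type unigenes with enough reads were lower and 0 higher. The higher share among the list's calls was 14.8% with totals, 19.4% with TMM factors and 22.5% with DESeq2 size factors. By the log2 ratio with 1 CPM added, the feruloyl esterase-like unigene, the carboxylesterase, alpha-esterase 41 and esterase E4 had places 2, 3, 9 and 49 from the lowest of the 69. Named by the rule on the lower side were alpha-esterase 41, the FE4 unigene Unigene150723_FOB (1 read in male adults and 152 in second-instar males) and a carboxylesterase (Unigene144282_FOB, 1 and 98). Against these, 2 juvenile hormone esterases and a butyrylcholinesterase-like unigene were read mostly in adult males, with 1531 reads (Unigene57797_FOB), 582 reads (Unigene61508_FOB) and 509 reads (Unigene40813_FOB) there and at most 5 reads in each of the other 7 libraries.

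Between female middle-stage and early-stage adults 22 of 123 were higher and 2 lower (17.9% and 1.63%, beside 2.77% and 7.6% of all unigenes). By the log2 ratio with 1 CPM added, esterase E4, the feruloyl esterase-like unigene, alpha-esterase 41 and the carboxylesterase had places 1, 2, 3 and 5 of the 22. Named by the rule beside esterase E4 were clade A member 5 (Unigene138514_FOB, 90 reads in middle-stage and 1 in early-stage adults) and clade E member 7 (Unigene129524_FOB, 53 and 1). Both lower ones were juvenile hormone esterases (Unigene127349_FOB, 8 and 65 reads, and Unigene18933_FOB, 12 and 83). Between later-stage and middle-stage adults 6 of 128 were higher and 23 lower (4.69% and 18.0%, beside 3.89% and 4.47% of all unigenes), with esterase E4, the carboxylesterase and alpha-esterase 41 in places 6, 9 and 13 from the lowest of the 23. Named on the higher side were ectonucleotide pyrophosphatase/phosphodiesterases, which cleave nucleotides outside the cell (Unigene113281_FOB, 398 reads in later-stage and 1 in middle-stage adults; Unigene109801_FOB, 332 and 1; Unigene55404_FOB, 305 and 0). Named on the lower side were juvenile hormone esterases (Unigene139566_FOB, 1 and 28; Unigene134242_FOB, 3 and 45; Unigene136021_FOB, 4 and 49).

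Male adults had 10 of 105 listed esterases higher and 19 lower than female early-stage adults, 15 of 124 higher and 56 lower than middle-stage adults, and 17 of 121 higher and 48 lower than later-stage adults. Against early-stage females the shares, 9.52% higher and 18.1% lower, were near the 9.31% and 16.8% of all unigenes. Against middle-stage females they were 12.1% and 45.2%, beside 16.4% and 18.9%, and against later-stage females 14.0% and 39.7%, beside 16.9% and 20.7%. By the log2 ratio with 1 CPM added, the feruloyl esterase-like unigene, esterase E4, the carboxylesterase and alpha-esterase 41 had places 1, 2, 5 and 12 from the lowest of the 56 lower than middle-stage females. Against early-stage females the higher share of the list's calls was 34.5% with totals, 46.4% with TMM factors and 48.3% with DESeq2 size factors. The 3 adult-male unigenes above were named on the higher side in all 3 comparisons. On the lower side the rule named juvenile hormone esterases against early-stage females (Unigene154639_FOB, 2 reads in males and 127 in females; Unigene128712_FOB, 2 and 58; Unigene129817_FOB, 1 and 28), and against middle-stage females esterase E4, Unigene128712_FOB (2 and 165) and the carboxylesterase Unigene112066_FOB (1 and 60). Against later-stage females it named Unigene128712_FOB (2 and 453), Unigene113281_FOB (0 and 398) and Unigene109801_FOB (0 and 332). In male against female first-instar larvae 0 of 106 were higher and 1 lower (Unigene154639_FOB, 4 and 30 reads). That is 0.943% lower, beside 2.79% of all unigenes and 0.448% of those with a protein match, which every listed esterase has. No listed esterase of 106 was past the rule between female second-instar and first-instar larvae, and none of 105 between female early-stage adults and second-instar larvae.

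Summed over the 70 carboxylesterase-type unigenes other than the members, reads came to 643, 1396 and 271 CPM in male first-instar larvae, male second-instar larvae and male adults, and to 593, 766, 761, 1714 and 1179 CPM in female first-instar larvae, second-instar larvae and early-, middle- and later-stage adults. The sum was highest in female middle-stage adults and male second-instar larvae, the 2 libraries in which the 4 members together were highest.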

How the data were processed

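The deposited tables give, for each of 8 libraries, the count of reads that the authors assigned uniquely to each unigene, with the library total in the header. Also deposited are RPKM, coverage as a percent of unigene length, length, gene ontology functions and a best match in protein databases. The labels' protocols name TRIzol extraction of total RNA from washed insects and standard Illumina library preparation. The aligner, assembler, strand setting and database release were not given in the sources used here. No coordinates could be given without a genome.

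Counts were joined by identifier, missing unigenes taken as 0, and divided by the header total. RPKM recomputed from count, length and total differed from the deposited RPKM by at most 2.3e-09 in relative size. Libraries were grouped by title, 1 per group. A unigene was called at 4-fold with 1 CPM added to each level and at least 20 reads in either library. Ratios without the added amount carry exact conditional binomial intervals and levels exact Poisson intervals, at 95%. Against 0 reads, a floor of 3 reads per library was used. The bounds it gives leave out the counting error of the larger count and are not 95% limits. No p-value is given, since no group has a second library. Scaling by TMM (edgeR 4.0.16) and by DESeq2 1.42.0 size factors, 5 CPM added, 100 reads or no minimum, 8-fold, a length of 500 bases and arthropod matches other than Hymenoptera were the alternatives. The rule was tested on simulated data for male over female second-instar larvae, where it recovered 50 of 50 unigenes raised 8-fold and 50 of 50 lowered 8-fold and called 1 of 32058 unchanged ones. The simulated counts held counting error only, and the changed unigenes had more expected reads than the minimum of 20. It checks the arithmetic of the rule and cannot give its rate of false calls between insects or libraries.

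The members and gene lists were chosen with earlier results of these data known, and 2 comparisons, of male second-instar larvae with female middle-stage and later-stage adults, were added after levels were seen. Named unigenes were the 4 members, the 3 most alike of each by r (1 per description, candidates with a named match), the most abundant of each kind of esterase, up to 4 highest and 4 lowest past the rule of each kind at the second instar, and the 3 highest and 3 lowest ratios of the list in every other comparison, with a ratio against 0 reads taken at its bound. The most abundant neuroligin (Unigene153441_FOB, 73 reads in male and 55 in female second-instar larvae), methylesterase (Unigene154512_FOB, 75 and 109), sphingomyelin phosphodiesterase 4 (Unigene156352_FOB, 151 and 147) and ubiquitin thioesterase 14 (Unigene149119_FOB, 190 reads in males) were not past the rule there. A nervous system marker list (23 unigenes) summed to 289 to 634 CPM over the libraries.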

Additional observations from a re-analysis of the deposited data

Results flagged for a closer look

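The 4 members had male over female ratios on opposite sides of 1 at the second instar and in adults. Alpha-esterase 41 had ratios of 0.0172 and 0.113 in male adults over female middle-stage and later-stage adults, and at least 76.2 at the second instar. The carboxylesterase had at most 0.0287 and at most 0.234 in the adult comparisons and at least 53.9 at the second instar. The feruloyl esterase-like unigene had at most 0.0205 and at most 0.0723 in adults and 186 at the second instar. Esterase E4 had 0.00962 and 0.0794 in adults and 39.5 at the second instar. Counting intervals excluded 1 for the ratios with reads in both libraries, and the bounds against 0 reads carry no interval. Against female early-stage adults the members had at most 4 reads in either library. Each group has 1 library, and the differences between stages were not tested. The unigenes below were taken from the esterases named in this report other than the members. Their ratio was on the same side of 1 against all 3 female adult stages. It was on the other side at a larval stage, with counting intervals that exclude 1. These ratios use library totals and were not set against the shift of all unigenes. Male over female, unigenes with a protein match and enough reads had a median log2 ratio of 0.26 at the first instar and 0.03 at the second. In adults their median was -0.60, -0.67 and -0.88 against early-, middle- and later-stage females. Listed esterases that are not named were left out, so more of them may meet this condition.

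Of the carboxylesterase type, the FE4 unigene Unigene80832_FOB had ratios of 0.181 at the second instar and 1.37 at the first, and of 0.0956, 0.0505 and 0.0675 in adults against early-, middle- and later-stage females. The carboxylesterase Unigene144282_FOB had ratios of 0.108, 0.0317 and 0.113 in adults, against 3.19 at the second instar. The juvenile hormone esterase Unigene128712_FOB had adult ratios of 0.0372, 0.00962 and 0.00447, against 1.93 at the second and 3.002 at the first instar.

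Acetylcholinesterase 1 (Unigene153736_FOB) had adult ratios of 7.82, 11.5 and 9.79, against 0.251 at the second instar, and the ace1 type acetylcholinesterase Unigene142078_FOB had 2.46, 7.54 and 19.2, against 0.454. The dual cyclic nucleotide phosphodiesterase Unigene151533_FOB had adult ratios of 3.24, 21.4 and 27.3, against 0.169 at the second instar. Unigene140459_FOB, of the same name, had adult ratios of 2.39, 11.1 and 14.2, against 0.246 at the second instar and 1.87 at the first.

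Sphingomyelin phosphodiesterase 4 (Unigene156352_FOB) had adult ratios of 0.270, 0.357 and 0.287, against 1.51 at the first instar. Ubiquitin thioesterase 14 (Unigene149119_FOB) had adult ratios of 0.432, 0.309 and 0.223, against 1.44 at the first instar. The methylesterase Unigene154512_FOB had ratios of 0.605 at the second instar and 1.88 at the first, and of 0.227, 0.157 and 0.199 in adults.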

How the results depend on the processing

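No paired analysis was possible because each group held replicate number 1 only. None of the 76 alternative ratios of the members changed direction, and every call of a member was kept under TMM factors and DESeq2 size factors. The depth limits the members to a few reads in most libraries. Another scaling multiplies every ratio of a comparison by the same factor, whatever its reads. The bounds against 0 reads given next moved by that factor, and so did the members' ratios with reads in both libraries. For male adults over female middle-stage adults the upper bound of the ratio was 0.0370 (TMM) and 0.0391 (DESeq2) for the carboxylesterase, against 0.0287, and 0.0265 and 0.0280 for the feruloyl esterase-like unigene, against 0.0205. For male adults over male second-instar larvae it was 0.0254 and 0.0294 for the carboxylesterase, against 0.0193, and 0.0221 and 0.0255 for the feruloyl esterase-like unigene, against 0.0168. For male adults over female later-stage adults it was 0.0961 (DESeq2) for the feruloyl esterase-like unigene, against 0.0723.

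With at least 100 reads asked for, esterase E4 was not counted for male second-instar larvae over females, over first-instar males or in male adults over second-instar males, 2 members were left in female middle-stage over early-stage adults and in male adults against middle-stage females, 1 in later-stage over middle-stage adults and 0 in male adults against later-stage females. With 5 CPM added or the 8-fold rule, esterase E4 was not past the rule in male adults over second-instar males, and under the 8-fold rule it was the only member past it in later-stage over middle-stage females. With no minimum all 4 were lower in male adults than in later-stage females. The settings on reads and on the fold do this by construction.

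The esterase list counts were within 1.5 times of the main ones under both other scalings, and the other settings moved these. With 5 CPM added, male over female second-instar larvae gave 24 higher (37 in the main count) and 0 lower (3), male over female first-instar larvae 0 lower (1), male second over first instar 26 higher (46) and 0 lower (6), male adults over second-instar males 6 higher (12) and 31 lower (69), male adults 9 lower (19) than early-stage, 9 higher (15) than middle-stage and 28 lower (48) than later-stage females, middle-stage over early-stage females 0 lower (2), and later-stage over middle-stage females 3 higher (6) and 12 lower (23).

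With at least 100 reads, in the same order, the counts were 13 higher and 1 lower, 0 lower, 13 higher and 1 lower, 5 higher and 18 lower, 4 lower than early-stage females, 5 higher and 11 lower (56) than middle-stage females, 7 higher (17) and 16 lower than later-stage females, 4 higher (22) and 0 lower, and 3 higher and 3 lower. With the 8-fold rule they were 0 lower, 0 lower, 0 lower, 6 higher and 42 lower, 10 lower than early-stage, 9 higher than middle-stage and 30 lower than later-stage females, 0 lower, and 3 higher and 6 lower.

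With unigenes of at least 500 bases, male over female second-instar larvae gave 8 higher and 1 lower, male second over first instar 9 higher and 2 lower, male adults over second-instar males 7 higher and 17 lower, male adults 4 higher (10) and 7 lower than early-stage, 9 higher and 14 lower than middle-stage and 10 higher and 15 lower than later-stage females, middle-stage over early-stage females 5 higher and 1 lower, and later-stage over middle-stage females 1 higher and 6 lower. With no minimum of reads, male over female first-instar larvae gave 2 lower, male adults 30 lower than early-stage females, female second over first instar 2 higher (0), early-stage adults over second-instar females 1 lower (0) and middle-stage over early-stage females 36 higher and 8 lower. Matches to arthropods other than Hymenoptera gave 3 higher in later-stage over middle-stage females. The cause of the other moves was not tested. Over all unigenes, the number past the rule moved by over 1.5 times in both directions of every comparison with 5 CPM added, 100 reads or 8-fold.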
